A study of Mus musculus with 12 samples.

Results

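The genes of mitosis and chromosome segregation were followed in mouse LSK cells after knockdown of Rad21, a subunit of the cohesin ring. A list of 42 genes was used, chosen for their known roles but with earlier results of these data known. It was sorted into 9 groups from the cyclins to condensin. All 42 were matched among the 46078 genes in the counts, and all 42 had at least 10 counts in each of the 12 libraries, where 17223 genes had 10 or more counts in at least 3 libraries.

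To divide, a cell copies its DNA, holds the sister copies together with cohesin, and then pulls them apart on the spindle. Cyclin B with Cdk1 drives entry into mitosis, condensin compacts the chromosomes, kinetochores tie them to microtubules, and the spindle checkpoint holds back the anaphase-promoting complex until every chromosome is attached. Separase then cuts the cohesin subunit Rad21, and the sister chromatids part. The transcripts of many of these genes are low in resting cells and build up in late S phase to mitosis, so that in bulk RNA their level follows the share of cells in those phases. Hematopoietic stem cells are mostly quiescent in the bone marrow and enter the cell cycle when they are put in culture or have to rebuild a transplanted marrow.

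LSK cells are Lineage-negative, Sca-1+, c-Kit+ hematopoietic stem and progenitor cells of C57BL/6 bone marrow. In every group they were infected with a lentivirus that carries GFP and 1 short hairpin RNA, either against Rad21 (shRad21) or against luciferase (shLuci), which mouse cells lack. For culture, infected cells were kept with thrombopoietin and stem cell factor, and those that were GFP+CD48-Sca-1+ were sorted 3 days after isolation. For the comparison in vivo, lethally irradiated mice received the infected cells, and GFP+ LSK cells were taken back from them. The labels put this at 3 months after transplantation, and the text of the study at a later time. Each of the 4 groups had 3 libraries. The labels give neither the age of the mice nor whether the 3 libraries of a group came from separate animals or cultures, so the p-values measure the spread between these libraries. The 2 experiments also differed in the sorted population and in the library kit (TruSeq RNA v2 in culture, SMART-Seq v4 with Nextera XT in vivo).

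The libraries held 15235129 to 29846689 counts, and the members took 0.433% to 0.627% of them. Rad21 stood at 384, 419 and 405 CPM (counts scaled to a common library total) in the shLuci culture libraries against 154, 137 and 128 in shRad21, and at 118, 124 and 125 in vivo against 43.4, 47.7 and 43.6. The log2 fold change was -1.52 ± 0.089 (SE) in culture and -1.43 ± 0.071 in vivo, so the labels held in all 12 libraries. Kit, which encodes the c-Kit of LSK cells, was detected in every library, from 266 to 976 CPM. It was not part of the sort after culture, where it was lower in shRad21 (-1.42 ± 0.094). The 3 T cell markers summed to at most 0.656 CPM in any library. 2 libraries of the knockdown stood apart over the members. In vivo, shRad21 replicate 2 had the highest CPM of its group for 38 of 42 members. In culture, shRad21 replicate 1 was highest for 38 members and replicate 3 lowest for 34.

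Promoter sequence was examined first, because the genes of this list are known targets of shared cell cycle elements: the cell cycle genes homology region (CHR), bound by the DREAM and MuvB complexes, and the CCAAT box, bound by NF-Y. RefSeq (GRCm38.p6) gave a 300-base window, from 250 bases before to 50 after the start, for 35 of the 42 members. TTTGAA or TTCGAA, the letters of the CHR, was found on either strand in 26 of 35 windows (74.3%), against 19.5% of 27025 windows over all genes. CCAAT, also on either strand, was in 26 of 35 (74.3%) against 38% of all, and both were in 23 of 35 (65.7%) against 7.73%. TTCGAA reads the same on both strands, and a CHR match can share at most 1 base with a CCAAT match. The first base of the CHR matches lay at a median of -18 from the start, counted as 0, and that of the CCAAT matches at -72.5. The RefSeq start was within 50 bases of the outermost GENCODE start for 26 of the 35. A match describes letters, not binding.

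The 120 bases before the RefSeq start are shown for 5 members whose later values differ, with matches in capitals (ATTGG is CCAAT on the other strand). Cdk1 (chr10:69352913-69353032, minus strand) and Cdc20 (chr4:118437344-118437463, minus strand) hold both elements here and were lower in vivo. Plk1 (chr7:122159315-122159434, plus strand) holds CCAAT here and its CHR match 30 bases after the start, and was also lower in vivo. Nuf2 (chr1:169531465-169531584, minus strand) holds neither in its window and was lower in vivo all the same, and Espl1 (chr15:102296173-102296292, plus strand) holds both and did not pass the test at the main setting.
Cdk1: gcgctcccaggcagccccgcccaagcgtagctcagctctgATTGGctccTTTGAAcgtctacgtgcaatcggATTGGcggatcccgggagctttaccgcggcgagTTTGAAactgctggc
Cdc20: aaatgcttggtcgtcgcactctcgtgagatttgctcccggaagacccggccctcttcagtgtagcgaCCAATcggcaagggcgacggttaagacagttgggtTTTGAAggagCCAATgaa
Plk1: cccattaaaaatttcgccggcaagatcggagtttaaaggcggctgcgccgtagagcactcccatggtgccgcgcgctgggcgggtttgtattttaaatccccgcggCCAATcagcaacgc
Nuf2: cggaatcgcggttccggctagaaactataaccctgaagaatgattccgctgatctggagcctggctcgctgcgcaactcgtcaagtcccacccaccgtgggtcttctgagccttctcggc
Espl1: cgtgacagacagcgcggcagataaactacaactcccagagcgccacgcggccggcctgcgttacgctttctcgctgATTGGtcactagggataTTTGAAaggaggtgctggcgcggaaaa

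The comparison of shRad21 with shLuci cells from transplanted mice asked how knockdown of Rad21 changed these genes in cells that had repopulated a recipient. Almost the whole program was lower. With edgeR's quasi-likelihood test and a Benjamini-Hochberg adjusted p below 0.05, 31 of 42 members were lower and 0 were higher, where 5.32% of all 15938 genes tested were lower and 5.65% higher. DESeq2 called 37 lower and 0 higher, and no member was higher at an unadjusted p under 0.05. The log2 fold change of the members had a median of -0.415, a level 75% of that in shLuci, against -0.00192 over all genes tested. The 31 called members ranged from -0.62 to -0.28. The CPM of the 2 groups did not overlap for 39 of 42 members, all with shRad21 below shLuci, against 29.1% of all genes. Bub1, Pttg1 and Ncapd2 overlapped. In bulk RNA, fewer cells in mitosis and less RNA per cell cannot be told apart.

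The summed CPM of the 42 members showed the same shift. It was 6016, 5714 and 5568 in the shLuci libraries in vivo and 4024, 4766 and 4191 in the shRad21 libraries, which makes 5766 ± 228 (SD, n = 3) against 4327 ± 389. The lowest shLuci library thus stayed above the highest shRad21 library.

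**Figure D1:**
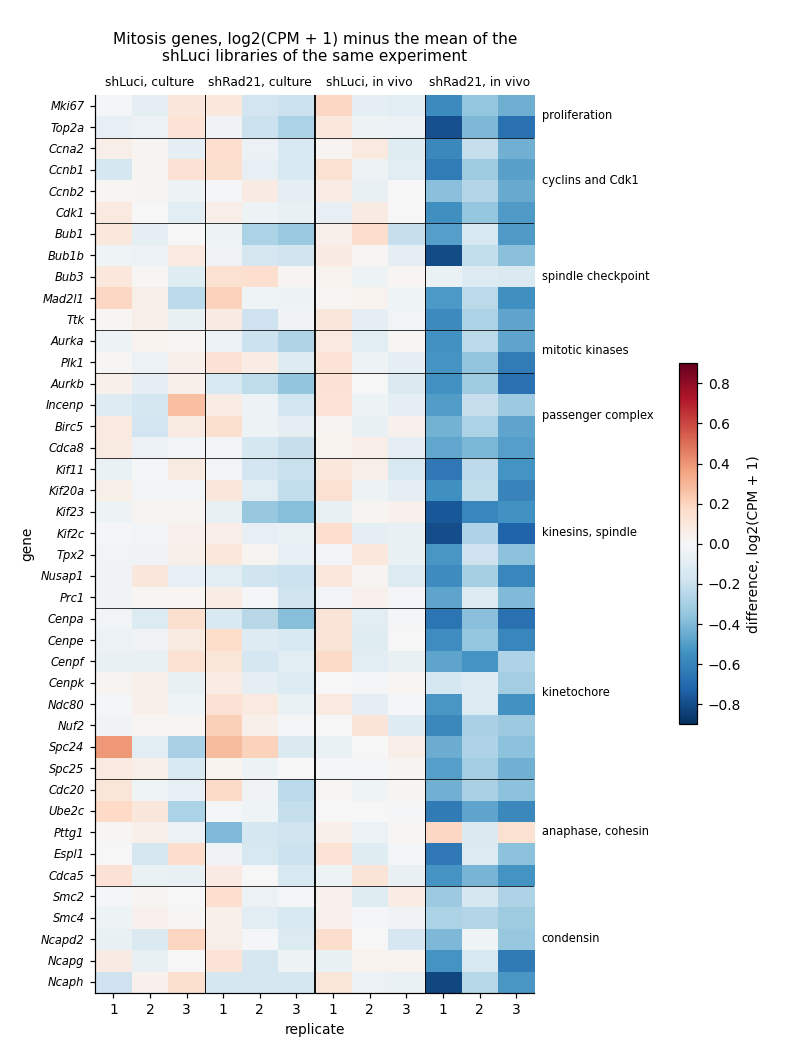
Heat map of the 42 members (rows, ordered by role) in the 12 libraries (columns, replicates 1 to 3 of each group), as log2(CPM + 1) minus the mean of the 3 shLuci libraries of the same experiment; blue is lower and red higher. The in vivo shRad21 columns are blue in nearly every row except Bub3 and Pttg1, in most rows palest in replicate 2, while the culture columns are pale.

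The proliferation genes were lower in vivo. Mki67 encodes Ki-67, the surfactant of mitotic chromosomes that is widely used to mark cycling cells. It stood at 352, 292 and 288 CPM in shLuci and at 208, 243 and 228 in shRad21, without overlap (log2 fold change -0.44 ± 0.091, adjusted p = 0.0131 in edgeR). Top2a, the topoisomerase that untangles sister DNA, stood at 485, 440 and 438 CPM against 262, 342 and 284. All 3 shRad21 values lay below the lowest shLuci value, and the log2 fold change was -0.60 ± 0.097 (edgeR, adjusted p = 0.00375).

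The 4 genes of the engine that drives mitosis, Cdk1 with the cyclins Ccna2, Ccnb1 and Ccnb2, were all lower. Cdk1, the kinase, went from 182, 202 and 191 CPM to 130, 150 and 134 (log2 fold change -0.45 ± 0.078, edgeR adjusted p = 0.00512). Ccnb1, its main mitotic cyclin, went from 70.7, 62.1 and 60.1 CPM to 41.2, 51.3 and 45.4 (-0.47 ± 0.10, edgeR adjusted p = 0.0163). In both genes the 2 groups did not overlap. Ccna2 and Ccnb2 changed by -0.39 and -0.35.

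Both mitotic kinases outside the passenger complex were also lower. Plk1, which acts at centrosomes and kinetochores and in cytokinesis, stood at 91.5, 81.3 and 79.3 CPM in shLuci and at 57.6, 65.5 and 53.9 in shRad21. The change of -0.49 ± 0.091 passed the test (edgeR, adjusted p = 0.00740). Aurka, the kinase of spindle poles, changed by -0.41 ± 0.091.

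The chromosomal passenger complex corrects faulty attachments at the centromere and guides cytokinesis, and all 4 of its subunits were lower. Its kinase Aurkb stood at 189, 173 and 158 CPM in shLuci against 118, 138 and 108 in shRad21, a log2 fold change of -0.50 ± 0.10 (edgeR, adjusted p = 0.0120). The scaffold Incenp changed by -0.33, survivin (Birc5) by -0.38 and borealin (Cdca8) by -0.45.

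Of the 7 kinesins and spindle proteins, 6 were lower, and the gene with the largest change of all members was among them. Kif23, the kinesin that builds the central spindle for cytokinesis, stood at 122, 130 and 131 CPM in shLuci and at 74.8, 84.4 and 87 in shRad21. Its log2 fold change was -0.62 ± 0.077 (edgeR, adjusted p = 0.000899), 1.54-fold lower. Kif2c, which takes microtubules apart at the centromere, fell from 66.7, 56.5 and 57.3 CPM to 34.1, 49.4 and 36. Its spread was wide, and the change of -0.58 ± 0.14 (edgeR, adjusted p = 0.0273) was no longer past the threshold in 4 of the 6 fits that leave out 1 library. Nusap1, which bundles spindle microtubules, changed by -0.47, Kif11, the motor that pushes spindle poles apart, by -0.46, Kif20a, a kinesin of the central spindle, by -0.44 and Tpx2, an activator of Aurora A, by -0.34. Prc1, which crosslinks antiparallel microtubules, had -0.31 and an adjusted p of 0.0628 in edgeR.

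At the centromere and kinetochore, 6 of 8 members were lower. Cenpa, the histone variant that defines the centromere, stood at 140, 120 and 128 CPM in shLuci and at 81.3, 99.1 and 80.6 in shRad21 (-0.55 ± 0.095, edgeR adjusted p = 0.00536). Cenpe, a kinetochore motor, went from 83.8, 71.5 and 76.9 CPM to 52, 60.5 and 51.1 (-0.49 ± 0.090, edgeR adjusted p = 0.00729). Neither gene overlapped between the groups. Cenpf, a large coiled-coil protein that binds kinetochores in mitosis, changed by -0.42. In the Ndc80 complex, the microtubule anchor of the kinetochore, Nuf2 changed by -0.39, Spc24 by -0.35 and Spc25 by -0.40. Ndc80 itself had a like estimate of -0.37 with a larger error of 0.12 (edgeR, adjusted p = 0.0776). Cenpk, of the inner kinetochore, had an estimate of -0.18 ± 0.094 and was not called. Its mean in vivo shLuci level was 7.09 CPM per exonic kb, against 5.24 for Cenpf, which was called. The test works on counts, and Cenpk has 5.23 exonic kb against 15.4 for Cenpf, so these levels do not rank their counts.

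The spindle checkpoint was less even, with 2 of 5 members past the threshold. Mad2l1, the inhibitor that the checkpoint makes against Cdc20, changed by -0.42 ± 0.089, and the checkpoint kinase Ttk by -0.43 ± 0.097. The kinase Bub1 stood at 86, 93.1 and 71.8 CPM in shLuci and at 58.8, 75.2 and 58 in shRad21. The groups overlapped, and the estimate of -0.37 ± 0.13 had an adjusted p of 0.102 in edgeR and of 0.0307 in DESeq2. Bub1b had -0.43 ± 0.13 (edgeR, adjusted p = 0.0637). Bub3, the adaptor that carries both, had the smallest estimate of the 5, -0.085 ± 0.054, from 274, 260 and 271 CPM to 257, 248 and 245.

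Among the genes of anaphase and cohesin control, 3 of 5 were lower, and the only member with a positive estimate was found here. Ube2c, the ubiquitin-conjugating enzyme of the anaphase-promoting complex, stood at 118, 118 and 117 CPM in shLuci and at 75.5, 84.5 and 78.5 in shRad21 (-0.55 ± 0.068, edgeR adjusted p = 0.000927). Its exons share 22.8% of their bases with Tnnc2 on the other strand. Cdc20, the activator of that complex, changed by -0.35 ± 0.065. Cdca5 encodes sororin, which protects cohesin on replicated chromatids, and fell from 96.2, 108 and 94.7 CPM to 68.4, 74.3 and 68.1 (-0.49 ± 0.079, edgeR adjusted p = 0.00399).

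The enzyme of the final cut and its inhibitor were not past the threshold. Espl1, the separase that cleaves Rad21, stood at 72.3, 61.4 and 65.2 CPM in shLuci and at 41.9, 60.7 and 51.1 in shRad21. The groups did not overlap, but by only a small gap, and the estimate of -0.35 ± 0.13 had an adjusted p of 0.116 in edgeR, 0.0511 in DESeq2, 0.00655 with no filter on expression and 0.0266 without shRad21 replicate 2. Pttg1, securin, which holds separase inactive, stood at 33.8, 31.5 and 33 CPM against 37.4, 29.9 and 36.1. Its groups overlapped, and the log2 fold change of 0.087 ± 0.11 had a 95% interval from -0.15 to 0.324.

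Of the 5 condensin subunits, Ncaph and Smc4 were lower. Ncaph, the kleisin that closes the ring of condensin I, stood at 95.7, 85.4 and 85.2 CPM against 49.7, 74.1 and 61.4 (-0.51 ± 0.13, edgeR adjusted p = 0.0337). Only without shRad21 replicate 2 did it pass among the 6 fits that leave out 1 library. Smc4, an ATPase arm of both condensins, had a smaller but tighter change of -0.28 ± 0.056 (edgeR, adjusted p = 0.0116). Ncapg had -0.41, Ncapd2 -0.24 and Smc2 -0.23, each short of the threshold.

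**Figure D2:**
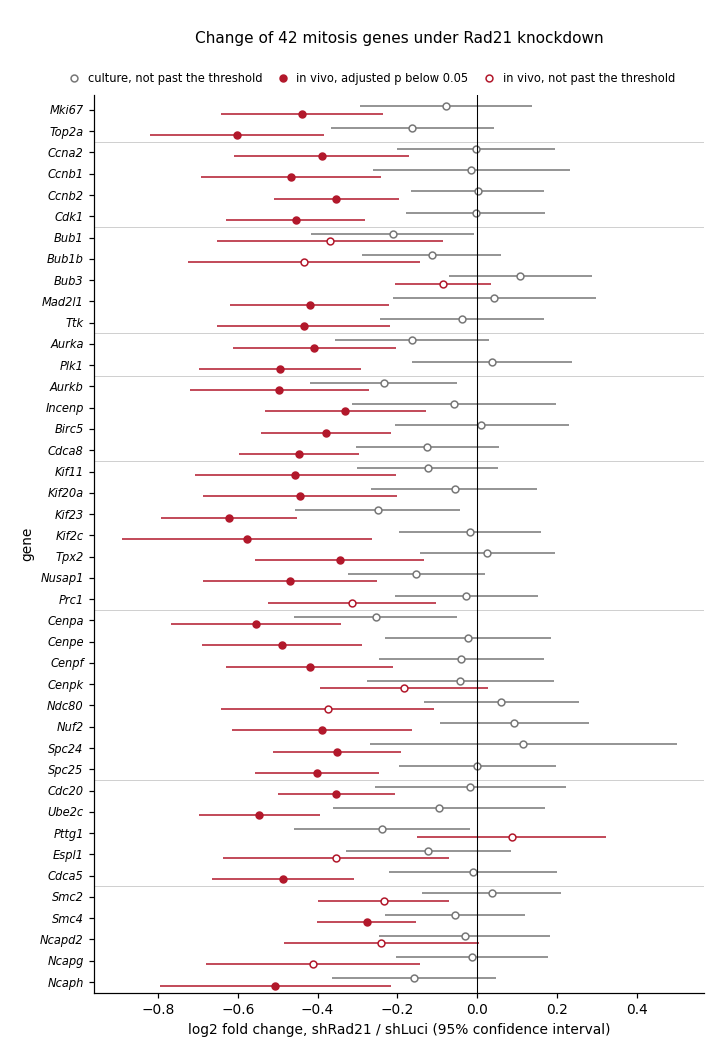
Log2 fold change of shRad21 against shLuci for the 42 members (rows, ordered by role), in culture (grey) and in vivo (red). The 95% confidence intervals were derived from the edgeR test, and filled points passed an adjusted p of 0.05. In vivo 41 of 42 points lie left of 0 and 31 are filled, whereas no culture point is filled.

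The count of called members depended on single libraries. It was 19, 22 and 30 without shLuci replicates 1, 2 and 3, and 16, 38 and 12 without shRad21 replicates 1, 2 and 3. The median log2 fold change stayed between -0.505 and -0.355 in these 6 fits. Replicate 2, the shRad21 library nearest to the controls, thus lowered the count when it was kept. Top2a, Cdk1, Plk1, Cdca8, Kif23, Cenpa, Cenpe, Spc25, Cdc20, Ube2c and Cdca5 passed in each of the 6 fits, and the other called members lost the call in at least 1.

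Markers of other cell types also differed in vivo, some lists lower and some higher. Over all genes tested, 5.32% were called lower and 5.65% higher. The sum of 10 granulocytic markers ranged from 1753 to 2249 CPM in shLuci and from 1244 to 1437 in shRad21, with 2 of 10 lower, and that of 9 erythroid markers from 155 to 215 against 99.2 to 138, with 3 lower. The 5 megakaryocytic markers summed to 253 to 316 CPM against 584 to 727, with 4 of 5 higher. Among the 4 was Vwf (3.16 ± 0.079), which the study also takes as a marker of myeloid-biased stem cells. The 5 monocytic and dendritic markers ranged from 30.1 to 53.7 against 13.2 to 16.4 CPM, with 3 lower, and the 6 B cell markers from 90.2 to 125 against 55.1 to 73.6, with 5 lower. The 4 mast cell and basophil markers ranged from 70.3 to 108 against 118 to 196 CPM, with 2 higher. No marker of these lists was at 0 in all 3 libraries of either in vivo group.

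Within the 11 markers of stem and progenitor cells the sum barely moved (4556 to 4798 CPM in shLuci, 4448 to 4658 in shRad21). Of the 11, however, 6 were higher and 3 lower, against 5.65% and 5.32% of all genes. Slamf1 (CD150), found on long-term stem cells, went from 11, 10.7 and 12 CPM to 51.3, 46 and 40.9 (2.05 ± 0.12). Flt3, found on multipotent progenitors, went from 689, 706 and 705 CPM to 193, 228 and 260 (-1.61 ± 0.097). The 2 groups did not overlap in either gene. Kit changed by -0.42 ± 0.076. The part of these differences in the lower level of the mitosis genes was not tested.

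Other genes of the cell cycle were read from 6 further lists of 119 genes, also chosen with earlier results of these data known. All 119 were tested. In vivo 35 were lower and 0 higher, against 5.32% and 5.65% of all genes, with a median of -0.248. An unadjusted p under 0.05 was found for 63 of the 119, against 24.1% of all genes. Of 19 further spindle and cytokinesis genes 11 were lower, such as Ect2, the exchange factor that starts furrowing, at -0.60, and Kif22, the chromosome-arm motor, at -0.60. Of 30 further kinetochore genes 8 were lower, led by Sgo2a, a shugoshin, at -0.57. Of 21 genes of mitotic entry and its transcription 8 were lower, among them Foxm1, a transcription factor of the late cell cycle, at -0.46, and the kinase Nek2 at -0.49.

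The lists differed in how many genes passed. None of the 17 further genes of the anaphase-promoting complex, some of its regulators among them, was called by edgeR or by DESeq2. Of these 17, 3 had an unadjusted p under 0.05, against 24.1% of all genes, and the median of the 17 was -0.0636. The list leaves out the members Cdc20, Ube2c and Mad2l1, which act with or on this complex and were lower. Of 29 DNA replication genes 7 were lower, with a median of -0.203. Their sum was 6216, 6089 and 5999 CPM in shLuci and 5091, 6045 and 5137 in shRad21, so that replicate 2 alone lay inside the range of the controls. No test compared 1 list with another.

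In culture, the same comparison, also without pairing of libraries, found no member past the threshold. Of the 42, 0 were higher and 0 lower, against 6.18% and 8.06% of 15543 genes, and DESeq2 also called 0. The median log2 fold change was -0.0343, and the estimates ran from -0.25 to 0.12. An unadjusted p under 0.05 was found for 5 of 42 members, a smaller share than the 27% of all genes tested. The 95% interval lay within 0.5 of 0 on the log2 scale for 41 of 42 members. The summed CPM was 6075, 5968 and 6352 in shLuci and 6312, 5673 and 5442 in shRad21, which overlapped. The median was -0.0967 without shRad21 replicate 1 and 0.0072 without replicate 3.

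The 5 members with the smallest p in culture all had negative estimates. Aurkb stood at 106, 96.9 and 106 CPM in shLuci and at 93.2, 87.5 and 80.4 in shRad21 (-0.23 ± 0.083, edgeR adjusted p = 0.0920). Cenpa stood at 167, 156 and 188 CPM against 154, 143 and 130 (-0.25 ± 0.093, edgeR adjusted p = 0.101), and Kif23 at 101, 106 and 106 against 99.5, 82.2 and 79.6 (-0.25 ± 0.094, edgeR adjusted p = 0.111). In each of these genes the groups did not overlap. Kif23 passed without shRad21 replicate 1 (adjusted p = 0.0338 in edgeR).

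Pttg1, which was not called in vivo, had one of the lowest estimates in culture, from 32.1, 32.9 and 30.6 CPM to 24, 28.5 and 28 (-0.24 ± 0.10, edgeR adjusted p = 0.153). Bub1 had -0.21 ± 0.093. In all, 6 of 42 members did not overlap between the culture groups, each with shRad21 below, against 31.5% of all genes, so their share was under that of all genes.

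Some genes that were lower in vivo had estimates close to 0 in culture. Cdk1 stood at 158, 149 and 139 CPM in shLuci and at 155, 144 and 142 in shRad21, an estimate of -0.0033 ± 0.079. Ccnb1 had -0.015 ± 0.11, Cdca5 -0.011 ± 0.096 and Plk1 0.036 ± 0.091. The estimates of Cdk1, Ccnb1, Cdca5 and Plk1 turned sign under other scalings or when single libraries were left out. Mki67 stood at 848, 807 and 923 CPM against 916, 761 and 752 (-0.078 ± 0.098), Top2a had -0.16 ± 0.093 and Espl1 -0.12 ± 0.094.

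Of the 119 further genes, 2 were higher in culture and 2 lower, against 6.18% and 8.06% of all genes. Cenpt, an inner kinetochore subunit, rose by 0.39 ± 0.085 and Chaf1b, a subunit of the replication-coupled histone chaperone, by 0.45 ± 0.094. Cdc27, a subunit of the anaphase-promoting complex, fell by 0.27 ± 0.081 on the log2 scale and Gtse1, a microtubule-associated protein of the late cell cycle, by 0.39 ± 0.093.

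Cell markers moved in culture as well, beside mitosis genes that did not pass. Of the 53 listed markers, 33 were tested there. Over all genes tested, 6.18% were called higher and 8.06% lower. Kit stood at 677, 720 and 828 CPM in shLuci and at 269, 266 and 293 in shRad21 (-1.42 ± 0.094), and Slamf1 at 11, 16.4 and 13.5 CPM against 25.4, 34.2 and 35.3 (1.21 ± 0.16). The 11 stem and progenitor markers summed to 3187 to 3507 CPM against 3200 to 3579, with 6 higher and 2 lower. The granulocytic sum ranged from 76.2 to 101 CPM against 35.8 to 45.3, with S100a8 at 0 in all shLuci and Ngp at 0 in all shRad21 libraries, and 3 of 5 markers tested were lower. The monocytic and dendritic sum ranged from 38.2 to 50.6 CPM against 7.01 to 11.2, and 4 of 4 tested were lower. The erythroid sum ranged from 155 to 191 CPM against 84 to 124, with Hba-a1 at 0, but of 4 tested Hbb-bt was lower (-0.93) and Gata1 higher (1.67). The megakaryocytic sum ranged from 630 to 744 CPM against 697 to 1022, and of 4 tested 3 were higher and Pf4 was lower (-0.65). The B cell sum ranged from 26.7 to 27.4 CPM against 17.6 to 21.4, with 1 of 2 tested lower, and the mast cell and basophil sum from 30 to 114 against 38.3 to 171, with 1 of 3 higher. The part of these markers in the result was not tested.

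**Figure D3:**
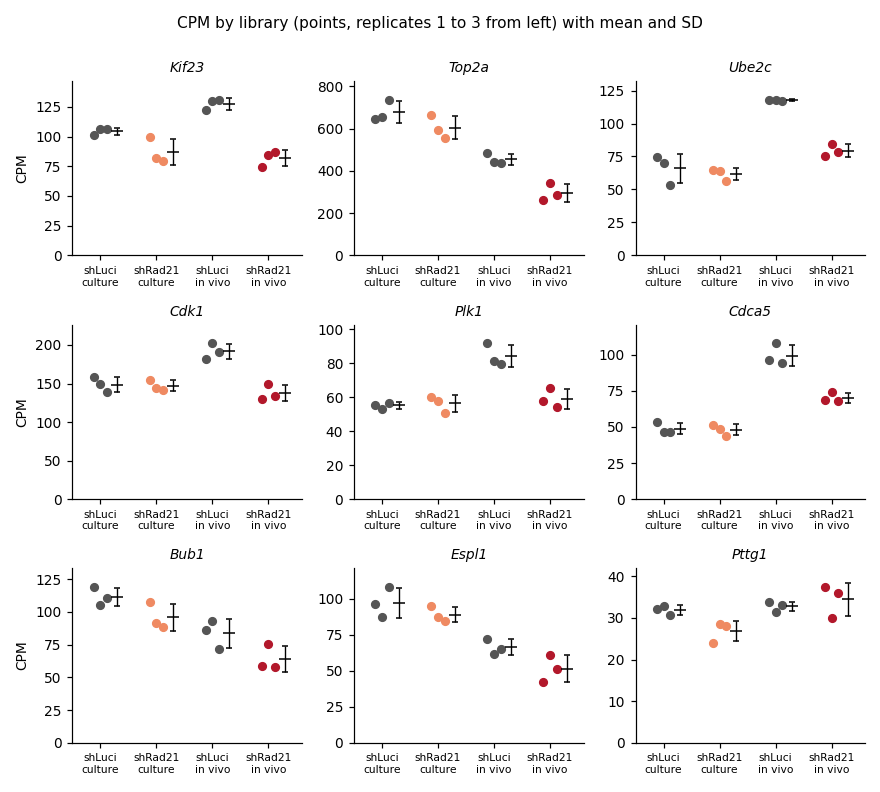
CPM of 9 members in each library (points, replicates 1 to 3 from left to right), with mean and SD (n = 3) beside each group. Kif23, Top2a, Ube2c, Cdk1, Plk1 and Cdca5 are lower in the in vivo shRad21 libraries than in every in vivo shLuci library, whereas Pttg1 overlaps there and lies below its controls in culture.

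Whether the effect of the knockdown differed between culture and in vivo was tested directly, with an interaction term over all 12 libraries (effect in culture minus effect in vivo). 5 members had a higher value and 0 a lower one, against 1.64% and 3.03% of 17050 genes. They were Plk1 (0.54 ± 0.13, adjusted p = 0.0299), Nuf2 (0.49 ± 0.13, 0.0497), Cdca5 (0.48 ± 0.12, 0.0378), Cdk1 (0.46 ± 0.11, 0.0247) and Spc25 (0.41 ± 0.11, 0.0497), all by edgeR. With libraries of the same number paired, Nuf2 had 0.0505 and Spc25 0.0595, and Mad2l1 and Ube2c passed. The estimate was positive for 41 of 42 members, with a median of 0.375. An unadjusted p under 0.05 was found for 32 of 42, against 17.7% of all genes.

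For the other 37 members the difference was not shown at the threshold. Top2a had 0.45 ± 0.14 (edgeR, adjusted p = 0.0836), Ccnb1 0.46 ± 0.16 (0.122), Mki67 0.37 ± 0.14 (0.164), Aurkb 0.27 ± 0.13 (0.320), Espl1 0.24 ± 0.17 (0.521) and Bub1 0.17 ± 0.17 (0.689). Pttg1 was the 1 negative estimate, -0.32 ± 0.14, with an unadjusted p of 0.0423 and an adjusted p of 0.258 in edgeR. The count of 5 was not stable. DESeq2 called 15 higher and 0 lower, and leaving out single libraries gave 0 to 17, with 17 without shRad21 in vivo replicate 2 and 0 without shLuci culture replicate 2, shRad21 culture replicate 1 or 2, or shRad21 in vivo replicate 1 or 3. Kit, sort, duration and host differ together between the experiments and cannot be told apart here. Of the 119 further genes, 4 passed the same test with a higher value (Kif22, Foxm1, Nek2 and Tk1) and 0 with a lower one. Over all genes the shares were 1.64% and 3.03%.

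The control libraries alone show how the members stood in culture and in vivo. Against shLuci in vivo, 12 members were higher in culture and 22 lower, where 37.1% of 17050 genes were higher and 37.1% lower. The groups did not overlap for 35 of 42, against 74.9% of all genes. The median difference was -0.229, or -0.348 with upper-quartile scaling and -0.404 with library size alone, scalings that also moved the median of all genes to -0.124 and -0.181. DESeq2 gave the same counts of 12 and 22, with the median of its genes at -0.343. Bub1 was not past the threshold with library size alone (adjusted p = 0.0800 in edgeR).

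Members of the same process went opposite ways. Mki67 stood at 848, 807 and 923 CPM in culture and at 352, 292 and 288 in vivo, a log2 difference of 1.47 ± 0.10. Cenpe was higher in culture by 0.88, Cenpf by 0.72 and Top2a by 0.58. Spc24 stood at 34.3, 24 and 21 CPM in culture and at 95.4, 99.8 and 104 in vivo, a difference of -1.93 ± 0.15, although it shares a complex with Nuf2, which differed by 0.02. Bub3 had -1.10, Spc25 and Cdca5 both -1.03, Cenpk -0.92, Ccnb1 -0.91, Cdc20 -0.90, Ube2c -0.83, Aurkb -0.75, Plk1 -0.61 and Cdk1 -0.37. Bub1 (0.42) and Espl1 (0.55) were higher in culture, and Pttg1 (-0.043 ± 0.10) was not called.

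These differences went with exonic length, that of the gene model rather than of the expressed transcripts. Of the 14 members with the shortest exonic length (1.53 to 4.22 kb), 0 were higher in culture and 12 lower, with a median of -0.69, whereas of the 14 longest (6.27 to 15.4 kb) 7 were higher and 5 lower, with a median of 0.348. Spearman's rho between the difference and the length was 0.584 over the 42 members. Over all genes in the same ranges the medians were -0.233 up to 4.22 kb and 0.447 above the middle range, and rho was 0.177 over 16976 genes. Those genes share 12 libraries and are not independent points. The kits, the sorted populations and the time in culture all differ between the 2 groups and cannot be told apart.

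**Figure D4:**
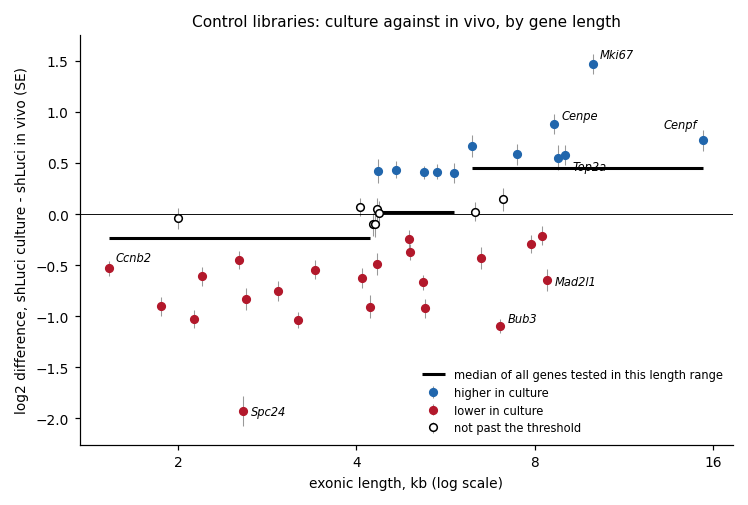
Log2 difference of the shLuci libraries, culture minus in vivo, with its SE against exonic length in kb (log scale) for the 42 members, coloured by call, and the median of all genes tested in each of 3 length ranges (black lines). Short members such as Spc24 lie below 0 and long ones such as Mki67, Cenpe and Cenpf above it, with Bub3 and Mad2l1 as long genes below 0.

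For the knockdown within an experiment, rho between the log2 fold change and the length was -0.0349 over the members in vivo and -0.0482 in culture, and 0.118 and 0.0847 over all genes tested. In vivo the medians of the 14 shortest, 14 middle and 14 longest members were -0.405, -0.434 and -0.415, with 13, 10 and 8 of 14 called lower.

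Levels of different members can be compared only per length. Per exonic kb, in the shLuci libraries in vivo, Ccnb2 had the highest level (114 ± 5.25 CPM per kb, SD, n = 3), followed by Cdc20 (74.9 ± 1.99) and Ccna2 (61 ± 4.14), each apart from the next by more than their SDs. Aurkb (58.8 ± 5.20) was within the spread of Ccna2. Cenpf was lowest, at 5.24 ± 0.558 CPM per kb. In the shLuci culture libraries Mki67 was first at 85.4 ± 5.85 CPM per kb and Ccnb2 second at 78.8 ± 2.35, which overlap within their SDs. In vivo Mki67 ranked 21. These orders carry the relation with length given above.

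The promoter elements did not divide the members by their response. In vivo, 17 of the 26 members with a CHR match were lower, with a median of -0.427, and 7 of the 9 without, with a median of -0.42. Of the 6 with neither element (Mad2l1, Birc5, Nusap1, Nuf2, Pttg1 and Ncaph) 5 were lower, with a median of -0.404, Pttg1 being the exception. Kif23, the member with the largest change, holds CCAAT with its first base at -7 and a CHR match at 2.

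**Figure D5:**
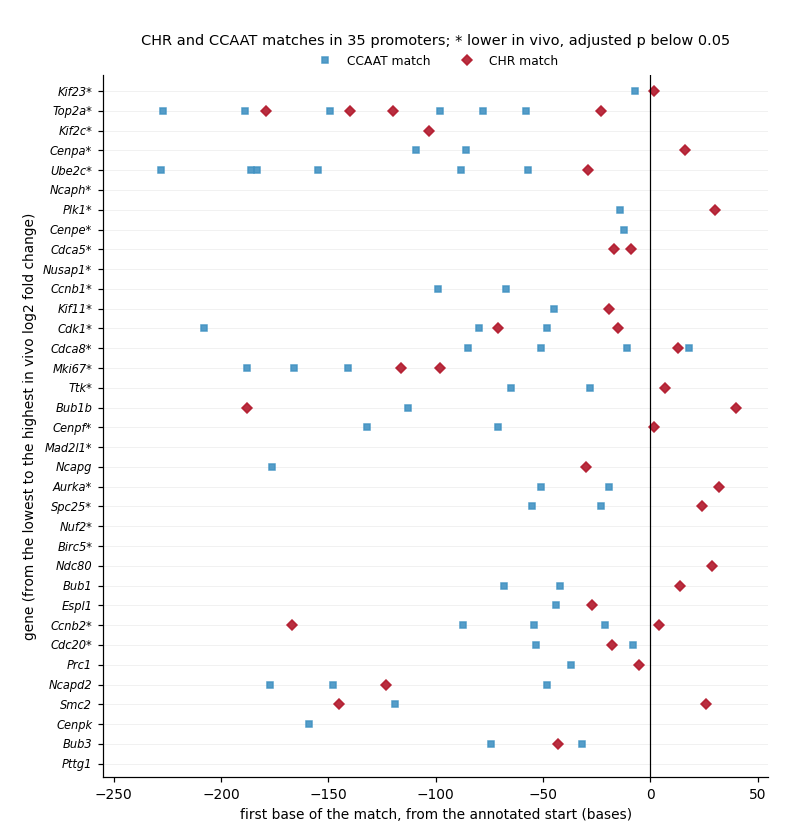
Positions of CHR (red) and CCAAT (blue) matches from the RefSeq start in 35 promoter windows, with genes ordered by their in vivo log2 fold change from the lowest (top) and * for those past the threshold. CHR matches gather near the start and CCAAT matches somewhat before it, in genes at the top and at the bottom alike.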

How the data were processed

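Bulk RNA-seq covered 12 libraries, 3 per group. Per the methods of the study and the processing notes, the authors checked reads with FastQC 0.11.3, removed ribosomal RNA with SortMeRNA, trimmed with Prinseq, mapped to GRCm38 (mm10) with TopHat2 2.0.11, counted with HTSeq 0.6.1 and deposited raw counts for 46078 genes. The strand setting is not given in the sources used here, and 12 members share exonic bases with another gene.

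Counts were tested here with edgeR 4.0.16 (R 4.3.3): filterByExpr, TMM, the quasi-likelihood test and Benjamini-Hochberg adjustment over all genes tested, threshold 0.05, two-sided. Each knockdown was fitted on its own 6 libraries, and the control comparison and the interaction in 1 model of 12. DESeq2 1.42.0, other scalings and filters, the replicate block and leaving out each library were alternatives. The tests were tried on simulated data first. At a true log2 change of 0.585, 80% of changed genes were recovered in culture and 37% in vivo. In the control comparison 59% were recovered, and in the interaction 15%. CPM come from 1 TMM scaling of all 12 libraries, and log2(CPM + 1) is used in the heat map. Each SE was derived from the edgeR test, as the absolute log2 fold change over the square root of its F statistic. The 95% intervals use this SE and a t quantile. Totals of 15235129 to 29846689 gave each member at least 284 counts.

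Same-numbered libraries deviated together from their group means in culture (Pearson's r of 0.263 to 0.292 over all genes tested) but less so in vivo (0.0163 to 0.0866), so numbers were taken to pair samples in culture only. This rests on the data, not on the labels.

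Gene models came from GENCODE M21, promoters from RefSeq (GRCm38.p6). Members, roles and lists were chosen with earlier results of these data known. Named per comparison were up to 12 members with the largest change past the threshold, or the 5 smallest p where fewer than 5 passed, and always Mki67, Top2a, Ccnb1, Cdk1, Plk1, Aurkb, Bub1, Cdca5, Espl1 and Pttg1. Other names were chosen after their values were seen.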

Additional observations from a re-analysis of the deposited data

Results flagged for a closer look

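In 5 members the effect of the knockdown in culture differed from the effect in vivo by the test of the difference itself (interaction term, edgeR, adjusted p below 0.05). The effect in culture minus that in vivo was 0.46 for Cdk1, 0.54 for Plk1, 0.49 for Nuf2, 0.41 for Spc25 and 0.48 for Cdca5, on the log2 scale. Cdk1 had an estimate of -0.0033 in culture and -0.45 in vivo, Plk1 0.036 and -0.49, Nuf2 0.093 and -0.39, Spc25 7.3e-05 and -0.40, and Cdca5 -0.011 and -0.49. In each of the 5 genes, all 3 in vivo shRad21 libraries lay below all 3 in vivo shLuci libraries. Over the 12 fits that leave out 1 library the adjusted p of edgeR ran from 0.0137 to 0.074 for Cdk1, from 0.0168 to 0.0933 for Plk1, from 0.0387 to 0.124 for Nuf2, from 0.0378 to 0.126 for Spc25 and from 0.0258 to 0.101 for Cdca5.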

How the results depend on the processing

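In vivo, the direction of every named member held under every alternative run, and the 31 calls were kept in full by DESeq2, both other scalings and both other filters. With the replicate block, which pairs libraries only by number there, 34 members were lower, 30 of them among the 31: Incenp was lost and Bub1, Bub1b, Prc1 and Ncapg passed. Not every library correlated best with its own number. In 1 model of 12 libraries 29 of the 31 stayed. Leaving out 1 library moved the count of lower members from 12 to 38.

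In culture, where the numbers were taken to pair the samples, the replicate block called 0 members too. The lowest adjusted p of a member there was 0.0526 for Kif23 in edgeR. Over all 15543 genes the block called 1447 higher and 1739 lower, against 960 and 1253 without it. In the interaction the block called 5 members, 3 of them shared, and in the control comparison it changed no call. Leaving out 1 library gave 0 to 1 lower members and a median from -0.0967 to 0.0072, positive without shRad21 replicate 3. Estimates near 0 changed sign. Cdk1 had 0.00186 with DESeq2, 0.0203 with library size only and 0.0161 with no filter, Ccnb1 0.01 and 0.00433 with the last 2, and Cdca5 0.0122 and 0.00811. With 1 library left out they ran from -0.0494 to 0.0424 for Cdk1, from -0.0938 to 0.0555 for Ccnb1, from -0.0505 to 0.0564 for Cdca5 and from -0.00414 to 0.114 for Plk1.

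For the interaction, 15 members were higher with DESeq2, 3 with upper-quartile scaling, 10 with no filter and 0 to 17 with 1 library left out. The control median was -0.348 with upper-quartile scaling and -0.404 with library size only. The causes were not tested. TTTGAA alone was in 71.4% of member promoters. Each member had at least 284 counts in every library, and whether more depth would add calls was not tested.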
